A study of Homo sapiens with 2 samples.

Results

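The genes described here encode the machinery that acts after mitochondria release their death factors. They are the apoptosome genes APAF1 and CASP9, the inhibitor of apoptosis (IAP) genes XIAP and BIRC2, the IAP antagonist genes DIABLO and HTRA2, and ENDOG and AIFM1, whose products act on nuclear DNA without caspases. They were chosen by name among protein-coding rows of the deposited table, and the rule uses names only. All 8 genes were found, in 9 of the 58735 rows because DIABLO has 2 gene identifiers.

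RNA was sequenced from control cells and from cells kept for 24 h with both TDCPP, a chlorinated organophosphate flame retardant, and titanium dioxide nanoparticles (TiO2 NPs), giving 1 library each. Both libraries are labelled as SH-SY5Y, an established human neuroblastoma line used as a neuron-like model. The groups are those of the sample titles, since the treatment text is the same for both samples. The labels give no dose, and the deposited values hold no library of a single agent. The effects of the agents can therefore not be told apart. Reads on annotated genes came to 16471438 in the control and 15315572 in the exposed library. The library totals implied by the deposited values were 0.971 of that number in the control and 1.03 of it in the exposed library. Every read ratio below is put on the authors' scale, so it is not the plain quotient of the read counts. With 1 library per group there is no spread between samples and no test, and every interval below is a 95% interval for counting error only.

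As background, cytochrome c that leaves mitochondria binds the APAF1 protein, which assembles into a wheel-shaped complex, the apoptosome, and recruits and activates the initiator caspase encoded by CASP9. That caspase cleaves the executioner caspases, and XIAP binds and blocks both kinds of caspase. DIABLO (also called SMAC) and HTRA2 are mitochondrial proteins that, once released, bind IAP proteins and relieve the block. These steps are governed largely by protein release, cleavage and binding, none of which is read by messenger RNA levels.

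Of 12 noradrenergic and neuronal markers of the labelled line, 3 reached a mean of 1 FPKM (fragments per kilobase of exon, with library size scaled by the authors), and these were GATA3, ISL1 and HAND2. The other 9 had under 15 reads in both libraries together, and PHOX2A, TH, STMN2 and ELAVL4 had 0, so most defining markers of the label were at or near 0. The summed FPKM of the 12 markers was 9.504 in the control and 7.06 in the exposed library. Messenger RNAs of the mitochondrial genome took 5.70% of control reads and 4.25% of exposed reads. The part of either measure in the differences below was not tested.

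A pair of the 8 genes, ENDOG and AIFM1, shared a promoter feature that the other 6 lacked, so their sequences are shown first. In the 250 bases upstream of the RefSeq start site nearest to the annotated gene start, each of the 2 held the hexamer TGCGCA at 2 places, and none of the other 6 promoters held it. TGCGCA is the half-site of NRF1, a transcription factor known for binding promoters of nuclear genes with mitochondrial products. DIABLO and HTRA2, whose promoters lacked it, also encode mitochondrial proteins. The hexamer occurs at least once in 6.89% of all 35116 promoter windows of this length in the RefSeq table for GRCh38.p14. The share of windows with 2 copies was not counted. The median share of G and C in those windows was 58%, beside 62.8% for ENDOG and 60.8% for AIFM1. Both promoters also held the CCAAT box, found in 32.0% of windows. Capitals mark TGCGCA and CCAAT in the sequences.
ENDOG, chr9:128818250-128818499, plus strand: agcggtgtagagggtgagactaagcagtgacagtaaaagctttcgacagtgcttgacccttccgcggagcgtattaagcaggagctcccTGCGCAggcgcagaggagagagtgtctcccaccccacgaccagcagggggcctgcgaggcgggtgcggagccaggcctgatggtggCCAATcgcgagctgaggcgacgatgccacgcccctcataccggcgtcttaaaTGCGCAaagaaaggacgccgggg
AIFM1, chrX:130165842-130166091, minus strand: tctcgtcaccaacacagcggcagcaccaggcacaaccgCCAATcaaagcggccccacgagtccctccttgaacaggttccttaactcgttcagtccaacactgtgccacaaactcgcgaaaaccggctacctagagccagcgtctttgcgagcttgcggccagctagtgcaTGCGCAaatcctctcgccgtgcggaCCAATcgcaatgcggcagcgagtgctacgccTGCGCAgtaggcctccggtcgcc
The copies of TGCGCA begin 161 and 23 bases before the start site in ENDOG and 79 and 23 bases before it in AIFM1. The hexamer reads the same on both strands. A match is a description of the letters and not a binding site.

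The other motifs were searched on both strands after the sequences had been seen. The CCAAT box was also present in APAF1 and CASP9, and the GC box GGGCGG, found in 42.6% of windows, in APAF1, CASP9, XIAP and DIABLO. CASP9 had 8 GC boxes, none of which overlapped its CCAAT box, while 2 pairs of them overlapped each other by 1 base. None of the 8 windows held the cAMP response element TGACGTCA, the C/EBP-ATF response element TGATGNAAN bound by stress factors such as ATF4, the E2F element TTTNNCGC or the p53 consensus of paired half-sites. Those motifs occur in 1.65%, 3.13%, 5.92% and 0.0256% of windows. Only the 250 upstream bases were searched, so a motif that spans the start site would be missed. The BIRC2 window ends in TGACGTC, and the base after it was not searched. The CASP9 window starts from a RefSeq start site 1744 bases from the annotated gene start, and that of APAF1 from 149 bases away, whereas the other 6 lie within 46 bases. For CASP9 and XIAP, the first 50 bases after the RefSeq start site were not found in any annotated transcript of the gene.

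The 7 genes with a measured level differed little between the libraries, and they did not all differ in the same direction. HTRA2, CASP9, XIAP and BIRC2 were higher in the exposed library, by 1.09-fold to 1.31-fold in reads on the authors' scale. APAF1, ENDOG and AIFM1 were lower, at 0.768 to 0.834 of the control. In such bulk RNA, fewer cells that express a gene and less RNA per cell cannot be told apart. A gene is called measured at a mean FPKM of 1 or more, which 7 of the 9 rows reached, and both DIABLO rows fell below it. The log2 ratio, log2((exposed FPKM + 1)/(control FPKM + 1)), was used to count genes, and its pseudocount of 1 understates differences of low genes. None of the 7 reached 2-fold, against 0.789% of the 11409 measured protein-coding genes, and none reached 1.5-fold, against 4.70%. The median log2 ratio of the 7 was 0.12, beside -0.05 over all measured genes, and 4 of the 7 lay above that overall median.

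**Figure D1:**
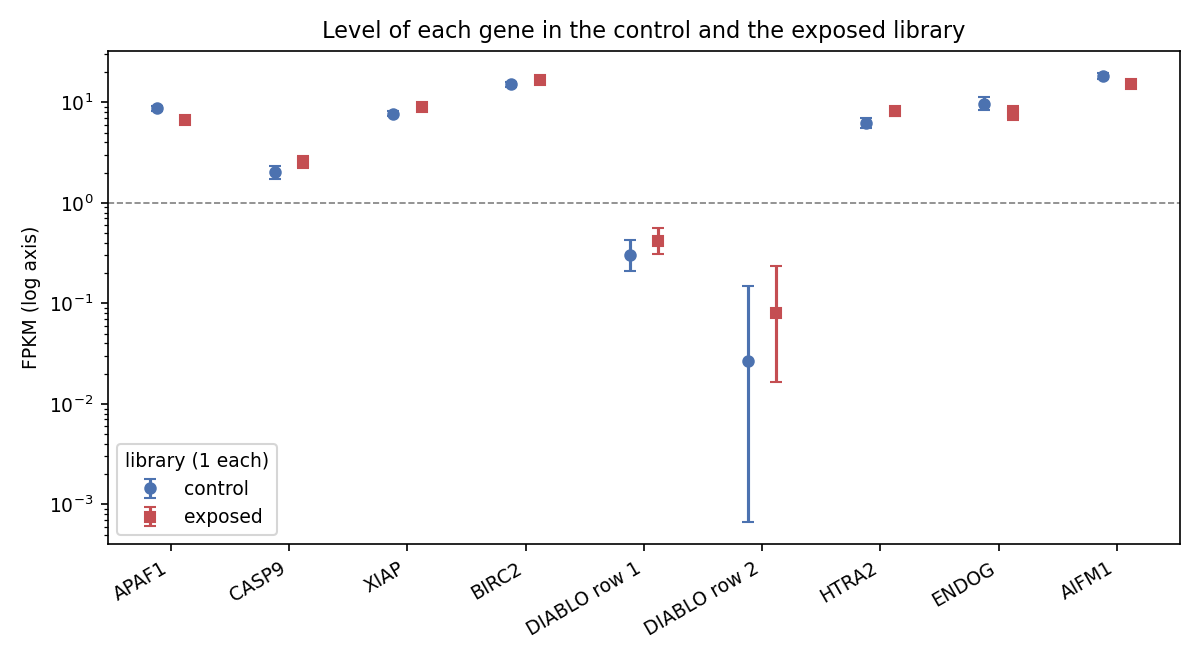
Level of each gene as FPKM on a log axis in the control (circles) and exposed (squares) library, with exact Poisson 95% counting intervals; the dashed line is the level of 1 FPKM that defines measured genes, and the 2 DIABLO identifiers are separate rows. All genes but DIABLO lie above the line, from 2.02 FPKM for CASP9 to 18.3 FPKM for AIFM1 in the control.

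**Figure D2:**
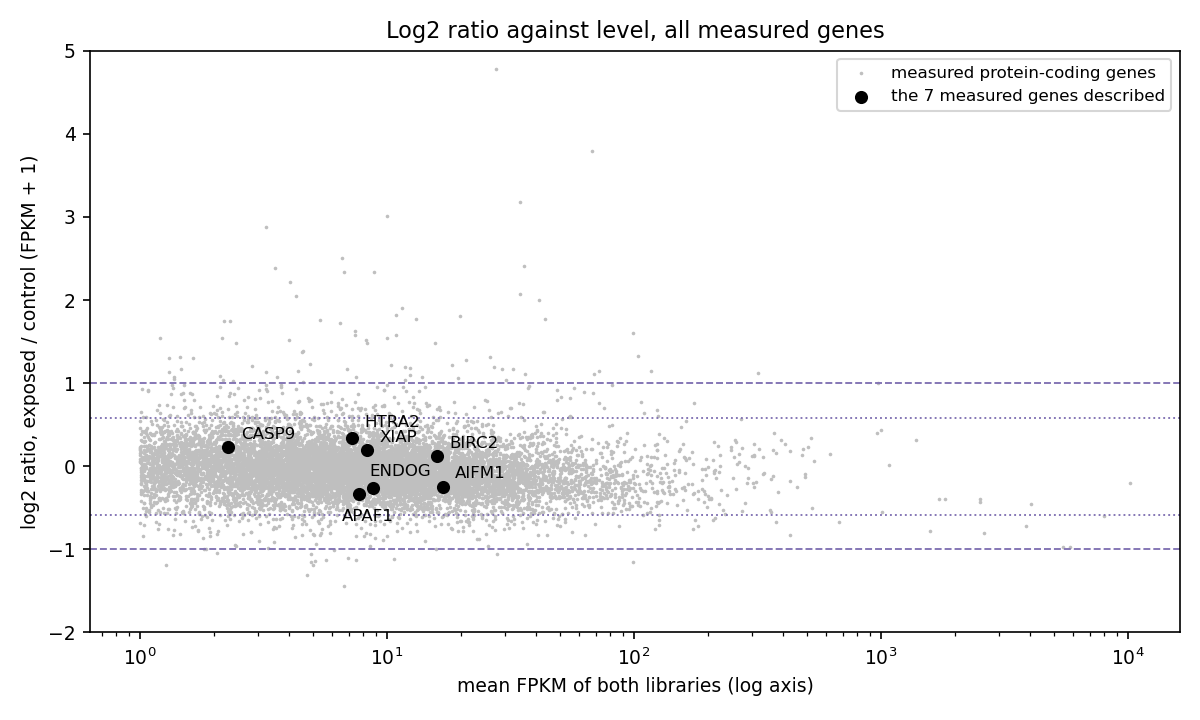
Log2 ratio of exposed to control against mean FPKM (log axis) for the 11409 measured protein-coding genes (grey) and the 7 measured genes described (black); dashed lines mark 2-fold and dotted lines 1.5-fold. All 7 lie between the dotted lines, from -0.34 for APAF1 to 0.34 for HTRA2.

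Counting intervals of the read ratios excluded 1 in 6 of the 7 measured genes, 4 of them higher and 2 lower. The same was true of 57.5% of all measured genes, with 21.5% above and 36.0% below 1, and of 52.2% of the 6700 measured genes that had between 328 and 2385 reads in all, as these 7 had. An interval that excludes 1 was thus common at this depth and compares 2 libraries only, not the conditions.

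The apoptosome genes went in opposite directions. APAF1 (ENSG00000120868, chromosome 12, 98645141 to 98735433 on GRCh38) had 8.72 FPKM in the control and, after exposure, 6.70 FPKM. The scaled ratio of its 1103 and 835 reads was 0.768 (0.701 to 0.841), and 20.6% of measured genes had a log2 ratio at least as far from 0. CASP9 (ENSG00000132906, chromosome 1, 15490832 to 15526534) was the lowest of the 7, at 2.02 and 2.54 FPKM. Its 170 and 211 reads gave a ratio of 1.26 with a wide interval of 1.02 to 1.55. Per kilobase, APAF1 messenger RNA therefore exceeded that of CASP9 by 4.32-fold in the control and 2.64-fold in the exposed library. The change in that ratio was 0.610 (0.486 to 0.765), a quantity that scaling between libraries cannot alter, and it was the farthest from 1 of the 7 ratios of 2 genes examined.

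The IAP genes were both slightly higher. XIAP (ENSG00000101966, chromosome X, 123859724 to 123913979), which encodes the direct caspase inhibitor, had 7.70 FPKM in the control library and 8.95 FPKM after exposure. The scaled ratio of its 1111 and 1274 reads was 1.16 (1.07 to 1.26). BIRC2 (ENSG00000110330, chromosome 11, 102347211 to 102378670) encodes cIAP1, a ubiquitin ligase of death receptor signalling, and stood at 15.2 and 16.6 FPKM. Its 1102 and 1185 reads gave a ratio of 1.09, with an interval of 1.004 to 1.19 that reaches almost to 1, and 64.6% of measured genes had a log2 ratio at least as far from 0. XIAP messenger RNA stood at 0.506 of the level of BIRC2 in the control and 0.540 in the exposed library, a change of 1.07 (0.949 to 1.198) that included 1.

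Of the IAP antagonists, HTRA2 had the highest log2 ratio of the 7 genes. HTRA2 (ENSG00000115317, chromosome 2, 74529377 to 74533348) encodes a mitochondrial serine protease and had 6.23 FPKM in the control library and 8.18 FPKM after exposure. From 299 and 387 reads the ratio was 1.31 (1.13 to 1.53), and 19.7% of measured genes had a log2 ratio at least as far from 0. Against BIRC2 the level of HTRA2 went from 0.410 to 0.493, a change of 1.204 (1.01 to 1.43). Per kilobase of exon that no other gene shares the same levels were 0.650 and 0.782 of that of BIRC2. Against XIAP it went from 0.809 to 0.914, a change of 1.13 whose interval of 0.948 to 1.34 included 1.

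DIABLO was close to unmeasured in this table. Its identifier ENSG00000184047 (chromosome 12, 122207663 to 122226568) had 33 control and 45 exposed reads, or 0.305 and 0.421 FPKM. The read ratio of 1.38 had an interval of 0.863 to 2.24, so a difference in either direction was within counting error. The identifier ENSG00000284934 (chromosome 12, 122207662 to 122227534) overlaps it on the same strand and had 1 and 3 reads. With the reads of both added, the ratio was 1.43 (0.904 to 2.29).

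Some DIABLO exons are shared with other genes, and the part of this sharing in the low DIABLO values was not tested. Of the 6774 exonic bases of ENSG00000184047, 4713 are unshared, and of the 2351 of ENSG00000284934, 344 are. Per kilobase of unshared exon, the level of ENSG00000184047 was 0.438 for control cells and 0.605 for exposed cells, still below the measured level. In GENCODE release 29, whose gene lengths the table uses, 2006 exonic bases belong to both DIABLO identifiers. The overlapping gene AC048338.1 shares 1139 bases with ENSG00000184047 and had 0 and 0 reads, and B3GNT4 on the other strand shares 970 and had 32 and 30. All 717 coding bases of the principal DIABLO isoforms lie in shared exons, so 0 of them are unshared. Across the table, 1894 genes have no exonic base of their own. Of these, 29 had any read, at most 9 in both libraries together, against 30037 of all 58735 genes with any read. For 710 of the 1894 the sharing genes lie only on the other strand, and 0 of the 710 had a read. Reads in shared exons were thus counted for neither gene or nearly so, on the same or the other strand, and the DIABLO values report on its other exonic bases rather than on its main coding sequence.

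**Figure D3:**
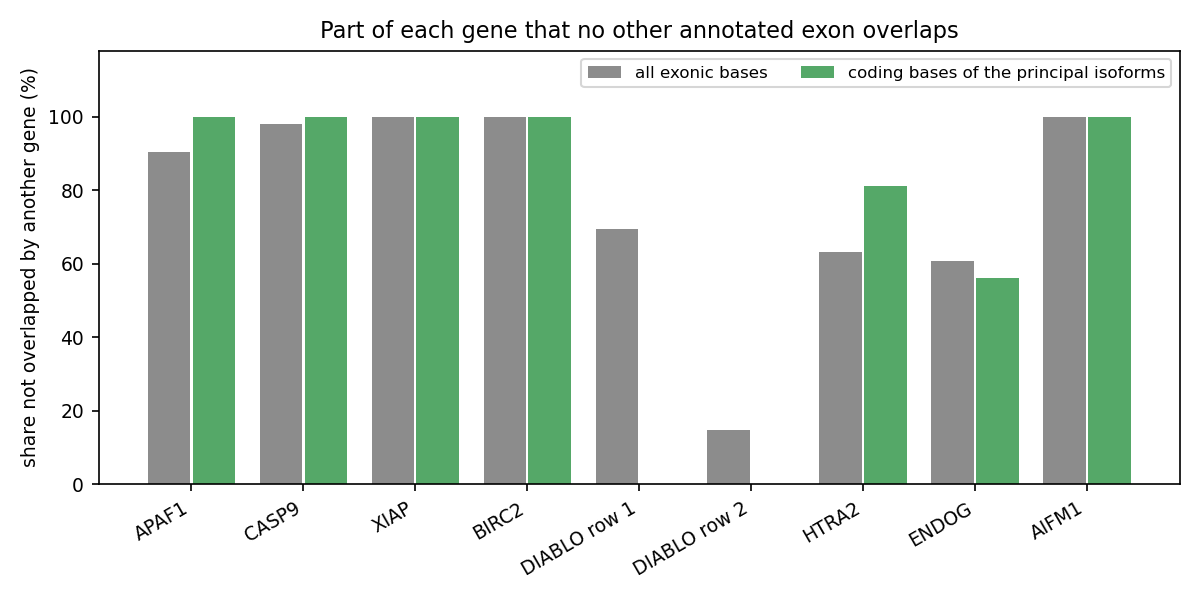
Share of each gene's exonic bases (grey) and of the coding bases of its principal isoforms (green) that no exon of another gene overlaps, in percent, on either strand, with 1 pair of bars per row of the table. The green bars are at 0 for both DIABLO rows, at 56.2% for ENDOG and 81.1% for HTRA2, and at 100% for the other 5 genes.

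HTRA2 and ENDOG also share part of their exons, so their deposited FPKM divides the reads of the unshared bases by the full exon length, in both libraries alike. HTRA2 has 1893 unshared bases of 3001, and its antisense neighbours AUP1 and LOXL3 share 483 and 625 bases. AUP1 stood at a read ratio of 1.08 (1.01 to 1.16), and LOXL3 at 0.886 (0.643 to 1.22). ENDOG has 712 unshared bases of 1172, with 460 shared with SPOUT1 on the other strand, which stood at a ratio of 0.895 (0.791 to 1.01). APAF1 shares 750 bases with ANKS1B, which had 20 and 19 reads, and CASP9 shares 106 with CELA2B, which had 2 and 2. XIAP, BIRC2 and AIFM1 share none, and the genes inside the XIAP interval, XIAP-AS1, RNU6-122P and AL121601.2, had 0 to 9 reads per library.

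The genes of the caspase-independent route were both lower. AIFM1 (ENSG00000156709, chromosome X, 130129362 to 130165887) encodes apoptosis-inducing factor, a mitochondrial flavoprotein that also supports the respiratory chain, and had 18.3 FPKM in the control library and 15.3 FPKM after exposure. From 969 and 797 reads the ratio was 0.834 (0.759 to 0.917). ENDOG (ENSG00000167136, chromosome 9, 128818474 to 128822677) encodes endonuclease G, a mitochondrial nuclease, and stood at 9.71 and 7.90 FPKM. Its 182 and 146 reads gave a ratio of 0.814, with an interval of 0.650 to 1.02 that included 1. The level of ENDOG relative to AIFM1 was 0.530 in the control and 0.517 in the exposed library, a change of 0.975 (0.763 to 1.24). Per kilobase of unshared exon the same ratios were 0.872 and 0.851, and the counting intervals of both levels then overlapped in each library.

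The order of the levels depended on the library and on the length used. In the control, deposited FPKM ran from AIFM1 through BIRC2, ENDOG, APAF1, XIAP and HTRA2 to CASP9, and only ENDOG and APAF1 were neighbours whose counting intervals overlapped. In the exposed library BIRC2 came first, with an interval that overlapped that of AIFM1, followed by XIAP, HTRA2, ENDOG, APAF1 and CASP9. There XIAP overlapped HTRA2, HTRA2 overlapped ENDOG, and ENDOG overlapped APAF1. Per kilobase of unshared exon, ENDOG stood at 16.0 and HTRA2 at 9.87 in the control, beside 15.2 for BIRC2 and 9.63 for APAF1. HTRA2 then stood above XIAP, at 1.28-fold in the control and 1.45-fold in the exposed library, whereas by deposited FPKM it stood below it in both.

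The summed FPKM of the antagonists DIABLO and HTRA2 was 0.285 of that of XIAP and BIRC2 in the control and 0.337 in the exposed library. Per kilobase of unshared exon the same quantities were 0.4504 and 0.531. Since all principal coding bases of DIABLO lie in shared exons, where reads were rarely or never counted, these sums rest almost wholly on HTRA2 and do not give the balance of antagonists and inhibitors.

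The genes nearest to the extremes in both libraries were found by distance in log2(FPKM + 1). For HTRA2 the nearest was ADGRA2, at 6.24 and 8.16 FPKM, and for APAF1 it was UNC119, at 8.67 and 6.74 FPKM. Within a distance of 0.1 lay 51 and 69 other genes, so 2 libraries do not single out a pattern.

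Among 48 other genes of the pathway, in 5 lists, 34 were measured. AVEN was at least 1.5-fold higher and CYCS at least 1.5-fold lower, so 2 of the 34 reached 1.5-fold, against 4.70% of all measured genes, and none reached 2-fold, against 0.789%. The median log2 ratio of the 34 was -0.09 beside -0.05 over all measured genes, and 0.02 beside 0.06 with equal FPKM sums. On the deposited scale 19 lay below and 15 above the overall median. These lists were drawn up with earlier results of the same libraries known.

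**Figure D4:**
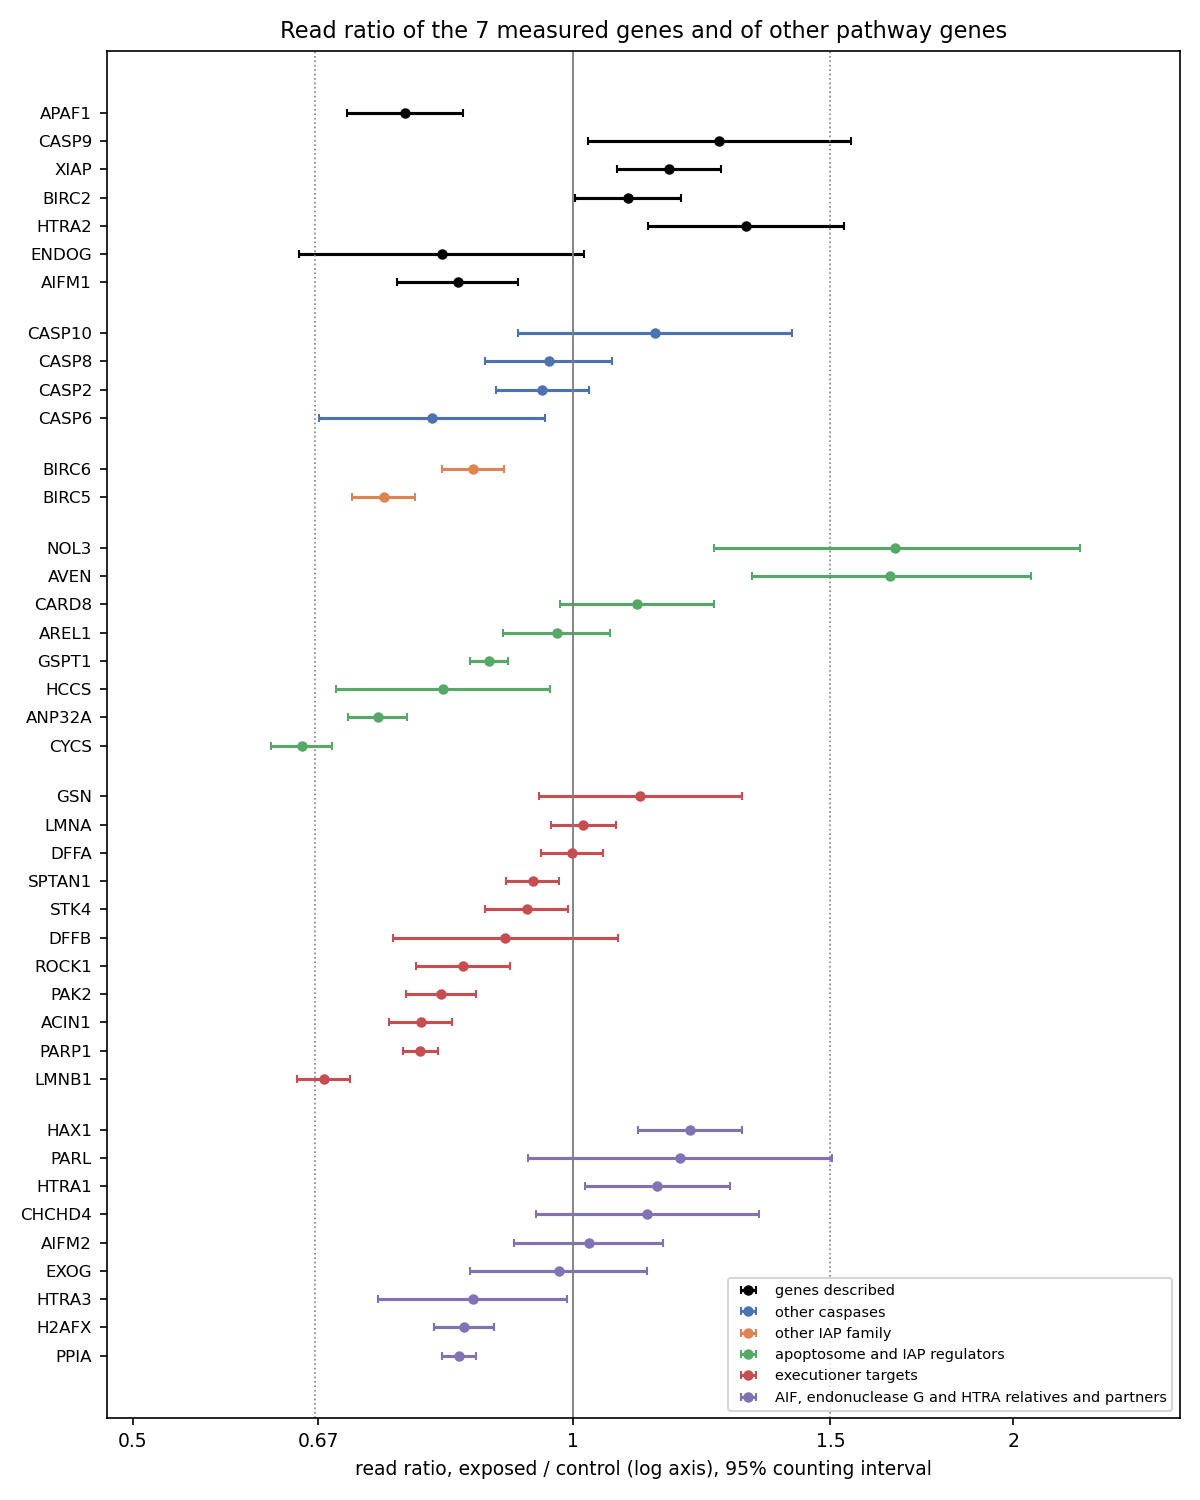
Read ratio of exposed to control (log axis) with its 95% counting interval for the 7 measured genes described and the 34 measured genes of 5 other lists, by list; the solid line is a ratio of 1 and the dotted lines are 1.5-fold. The ratios run from 0.652 for CYCS to 1.66 for NOL3.

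Of 8 other caspase genes 4 were measured, with a median log2 ratio of -0.06 and none at 1.5-fold. The lowest of the 4 was CASP6, whose product is a downstream caspase that cleaves lamins, at 9.201 and 7.38 FPKM and a read ratio of 0.802 (0.6703 to 0.958). The highest log2 ratio of the 4 was that of CASP10, an initiator of the death receptor route, at 0.11, and its read ratio of 1.14 had an interval of 0.917 to 1.41 that included 1. CASP1, CASP5 and CASP14 had 0 reads in both libraries. CASP4, below the measured level at 0.310 and 0.664 FPKM, had 36 and 76 reads, a ratio of 2.14 (1.42 to 3.28).

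Of the 6 other IAP family genes 2 were measured, and both had lower values in the exposed library. BIRC5, the mitotic gene for survivin, had 60.7 and 45.03 FPKM and a read ratio of 0.742 (0.706 to 0.780). BIRC6, which encodes a very large ubiquitin-conjugating IAP, had a ratio of 0.854 (0.813 to 0.897). BIRC3, the close relative of BIRC2, was not measured, with 78 and 96 reads. NAIP had 8 and 9 reads, and BIRC7 and BIRC8 had 0.

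Among 10 regulators of the apoptosome and of IAP proteins, 8 were measured, and their log2 ratios ran from -0.60 to 0.62. CYCS, the gene for the cytochrome c that triggers the apoptosome, had 60.3 and 39.4 FPKM and a read ratio of 0.652 (0.622 to 0.684). Among the apoptosome components themselves, CYCS and APAF1 were thus lower and CASP9 higher. AVEN, whose product binds APAF1 and opposes its assembly, had 4.702 and 7.75 FPKM and a read ratio of 1.65 (1.33 to 2.06). NOL3, the gene of the caspase recruitment domain inhibitor ARC, had a read ratio of 1.66 (1.25 to 2.22) at 1.67 and 2.78 FPKM. Its log2 ratio with the pseudocount was 0.499, short of 1.5-fold, and NOL3 was singled out after its value was seen.

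Of 12 genes whose products executioner caspases cleave or activate, 11 were measured, with a median log2 ratio of -0.12 and none at 1.5-fold. The lowest of the 11 was LMNB1, a nuclear lamin gene, at 98.01 and 66.2 FPKM, a ratio of 0.675 (0.648 to 0.704). The highest of the 11 was GSN, the actin-severing gelsolin gene, at a log2 ratio of 0.099. Of 12 relatives and partners of AIFM1, ENDOG and HTRA2, 9 were measured, with a median of 0.03 and none at 1.5-fold. HAX1, a mitochondrial partner of the HTRA2 protein, was the highest of the 9, at 31.5 and 37.9 FPKM and a ratio of 1.202 (1.11 to 1.304). PPIA, the gene of cyclophilin A, which can act with AIFM1 on DNA, was the lowest of the 9, at a ratio of 0.836 (0.814 to 0.859).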

How the data were processed

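The deposited values are FPKM per gene, computed by the authors, with 1 column per library. The aligner and the read counter are not stated in the sources used here. Builds GRCm38 and mm10, both of mouse, are listed in the submitters' processing notes, but all 58735 identifiers are human, and every gene length equals the merged exons of GENCODE release 29, so coordinates are on GRCh38. The product of FPKM and gene length fell on whole reads, within 0.001 reads, for 100% of values above 0 in both libraries. The authors' scaling between libraries was kept, and all read ratios are on that scale. Read ratios carry exact conditional binomial (Clopper-Pearson) intervals, ratios of 2 genes the conditional exact interval of the odds ratio, and single levels exact Poisson intervals, at a confidence level of 95%. These treat reads as independent molecules. No test was possible with 1 library per group. Code was tested on simulated data (Python 3.11.15, scipy 1.17.1). The members and lists were chosen with earlier results of these data known, and some genes of the pathway are not reported here. Named genes were the 8 members, overlapping genes, the nearest gene to the highest and lowest member, and of each other list CYCS, genes past 1.5-fold and the 2 extremes. Other genes of those lists are named as examples, chosen after their values were seen. Alternatives were other pseudocounts, scalings, filters and thresholds and removal of trends with length and level. Scaling by the reads on annotated genes was not among them.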

Additional observations from a re-analysis of the deposited data

How the results depend on the processing

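The direction of each of the 7 measured genes was the same under all 8 alternative pseudocounts, scalings and trend removals, and none of the 7 reached 1.5-fold under any of them. A different pseudocount cannot change a direction, so only the scalings and trend removals bear on it. APAF1 ranged from -0.38 to -0.23 in log2 ratio, AIFM1 from -0.26 to -0.13, ENDOG from -0.29 to -0.16, HTRA2 from 0.23 to 0.45 and CASP9 from 0.10 to 0.32. With equal FPKM sums, which shifted the overall median by 0.11, XIAP stood at 0.31 and BIRC2 at 0.23, outside their counting intervals. Of the other pathway genes, 2 passed 1.5-fold as reported. The number was 0 with a pseudocount of 5. It was 1 with equal FPKM sums, with the trimmed mean of log ratios set to 0, with equal 75th percentiles, with scaling to equal sums after leaving out the 100 top genes and those of the mitochondrial genome, and with the trend in gene length or in level removed. With a pseudocount of 0.1 it was 3. The median of these genes, -0.09 as reported, was 0.02 with equal FPKM sums, beside 0.06 over all measured genes, and -0.20 for the 27 with a mean FPKM of 5 or more, beside -0.08 over the 7446 genes at that level. The log2 change of the DIABLO to XIAP ratio was 0.25 from FPKM and -0.07 from FPKM + 1. Levels per kilobase of unshared exon and the summed DIABLO reads were added after the data had been seen. No paired analysis was possible because each group has 1 library. Read numbers leave wide intervals for CASP9 and ENDOG, the counting of shared exons limits DIABLO, and the absence of replicates limits every comparison.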
